A study of Mus musculus with 8 samples.

Results

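AP-1 and EGR factors are the transcription factors of the immediate-early response, and 9 of their genes are described here in microglia, the macrophages that reside in brain tissue. The genes are Fos, Fosb, Fosl2, Jun, Junb, Jund, Egr1, Egr2 and Egr3. They were taken by name, as the probe sets whose annotated symbol is that of a member, and each of the 9 had exactly 1 such probe set among the 19938 genes tested. Microglia were sorted as CD11b-high, CD45-intermediate cells from whole brains of Swiss Webster mice aged 17 weeks, all labelled female. Brains were perfused and broken up mechanically in the cold, a handling that precedes the sort in both genotypes. Of the 8 samples, 4 came from MFP2 knockout mice and 4 from control mice, whose genotype is given as wild type. MFP2 (multifunctional protein-2, gene Hsd17b4) breaks down fatty acids by beta-oxidation in peroxisomes. The labels number the replicates and do not state whether each is its own animal, so the p-values reflect only how far these samples differ, which may be technical. Values are log2 expression from 1 microarray per sample, and the number of arrays limits the precision.

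AP-1 is a dimer of leucine zipper proteins, usually a Fos family protein with a Jun family protein. Fos proteins need a Jun partner to bind DNA, while Jun proteins can also pair with each other. EGR proteins bind GC-rich sites through zinc fingers. Most of these genes are silent or low at rest and are switched on within minutes by growth factors, cytokines, danger signals or mechanical handling of cells, through MAP kinases that act on serum response factor (SRF) with its ETS partners and on CREB. In macrophages they help to set which inflammatory and metabolic genes a stimulus turns on.

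Sequence just before the start of transcription is shown for members whose array values are compared below, to display which of the binding letters of SRF, CREB and EGR proteins they hold. The 250 bases before each start were searched on both strands, in RefSeq's GRCm38.p6 promoters, for the CREB core TGACG, the full CREB site TGACGTCA (which contains the core), the AP-1 site TGANTCA, the EGR site GCGNGGGCG, the TATA box TATAAA and the SRF site known as the CArG box. Matches are in capitals in the sequences that follow, and each covers the 150 bases before the start, 5′ to 3′ along the gene.

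Fos (chr12:85473740-85473889, + strand): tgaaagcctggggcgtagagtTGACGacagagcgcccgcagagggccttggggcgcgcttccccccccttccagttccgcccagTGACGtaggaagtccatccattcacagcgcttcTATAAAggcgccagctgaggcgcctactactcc

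Fosb (chr7:19310046-19310195, - strand): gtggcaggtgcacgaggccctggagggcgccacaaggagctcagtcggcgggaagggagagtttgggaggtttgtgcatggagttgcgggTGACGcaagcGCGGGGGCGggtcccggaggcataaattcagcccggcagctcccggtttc

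Jun (chr4:95052223-95052372, - strand): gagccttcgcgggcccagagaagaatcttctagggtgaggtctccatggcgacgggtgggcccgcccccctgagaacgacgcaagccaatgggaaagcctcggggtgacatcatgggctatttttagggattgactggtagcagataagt

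Junb (chr8:84978749-84978898, - strand): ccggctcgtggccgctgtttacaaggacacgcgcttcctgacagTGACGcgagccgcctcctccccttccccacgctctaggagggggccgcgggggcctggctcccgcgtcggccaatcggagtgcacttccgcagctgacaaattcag

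Egr2 has 5 start windows in the promoter table, and CArG boxes at different places stood in windows of different starts. The following pair of 30-base stretches begins with it, both on the + strand.

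Egr2, upstream site (chr10:67537494-67537523): CCTTTTTTGGaaagtctcggagaaccggaa

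Egr2, downstream site (chr10:67537797-67537826): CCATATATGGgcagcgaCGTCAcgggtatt

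The CREB core lay 66 to 62 and 129 to 125 bases before the Fos start, 60 to 56 bases before the Fosb start and 106 to 102 bases before the Junb start. In the Egr2 window where the downstream CArG box lay 72 to 63 bases before the start, the core lay at 111 to 107. Its reverse complement, CGTCA, lay just after that box. Of all 32851 windows of the same length, 17.8% held the core, 1.47% a CArG box and 4.70% the EGR site, which Fosb and Fosl2 held. The full CREB site (1.55% of windows) and the AP-1 site (6.75%) were in no window of the 7 members searched, and among these the TATA box (12.4%) was only in that of Fos. Egr1 and Egr3 were not searched, and nothing is said here of their promoters. Matches are letters, not shown binding, and absence holds for this window and these exact letters only. Variants of a site, such as tgacatca in the Jun stretch, were not counted. The serum response element known for Fos lies further from the start than the 250 bases searched.

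Before the members are compared, 3 facts about the arrays bear on them. The targeted gene was lower in every knockout array: Hsd17b4 was at 8.83, 9.09, 8.15 and 7.82 in controls 1 to 4, and the knockouts 1 to 4 were at 4.76, 7.20, 5.21 and 5.20 (limma adjusted p = 0.00158). Knockout 2 stood highest among the knockouts there. Whether the probe set covers sequence that was deleted is not known here. Control 1 did not match its female label, with Xist at 6.80 against 10.55 or more in the other arrays and the Y-linked Eif2s3y at 8.14 against 2.99 or less. The microglial markers checked (8 measured, Tmem119 and P2ry12 among them) had a median level at the 99.2 percentile of all tested genes. Neutrophil markers (7 measured) were at the 96.4 percentile, so the arrays also held transcripts known from other cells.

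Egr2 was the member that changed with the genotype. It encodes KROX20, a zinc finger factor best known for driving myelination in Schwann cells and also made by macrophages. Its log2 values (probe set 10363735) were 7.31, 6.45, 7.20 and 7.74 in controls 1 to 4, and knockouts 1 to 4 gave 8.03, 8.18, 8.56 and 8.10. Every knockout array lay above every control array, with control 4 the nearest of the controls. The mean rose from 7.17 ± 0.54 (SD, n = 4) to 8.22 ± 0.23, a log2 change of 1.04 ± 0.22 (SE), or 2.06-fold (95% interval 0.56 to 1.52 on the log2 scale, limma adjusted p = 0.00988). The call held in all 18 alternative fits, with changes from 0.80 to 1.23 and adjusted p from 0.00396 to 0.0400. Without control 1, the array that goes against its label, the change was 1.09 (adjusted p = 0.0213).

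Read against the background, 1 of 9 members was higher and 0 were lower, where 5.38% of all tested genes were higher and 4.17% lower, or 9.55% in either direction. At an unadjusted limma p under 0.05 the counts for the members were also 1 and 0. Groups that do not overlap, with the knockouts above, were found for 1 member, Egr2, and for 7.09% of all genes. Groups with the knockouts below were found for 0 members and for 6.92% of all genes, and without overlap in either direction for 14%. With so few members the share called does not set them apart from other genes.

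Some marker genes of other cells also differed by genotype in the same arrays. Of 7 brain-border macrophage markers 4 were lower and 1 higher (6 and 1 at an unadjusted limma p under 0.05). Their summed level ran from 9.33 to 9.99 in controls and from 8.64 to 9.33 in knockouts on the log2 scale. Of 6 oligodendrocyte markers 1 was higher, Mbp, with sums of 8.97 to 9.14 against 9.17 to 9.33 (1 higher and 1 lower at an unadjusted limma p under 0.05). Of 8 microglial markers 7 were lower, with sums of 14.68 to 14.90 in controls and 14.02 to 14.31 in knockouts. Neutrophil markers were bright, with sums of 11.50 to 14.23 in controls and 12.78 to 13.60 in knockouts, and 0 of 7 were called in either direction by limma (also 0 at an unadjusted p under 0.05). Of 6 astrocyte markers 1 was higher, Gfap (3 higher and 0 lower at an unadjusted limma p under 0.05). Of 5 endothelial markers 1 was higher (Flt1) and 1 lower (Pecam1), and of 5 monocyte markers 1 was lower (Ccr2). Of 6 lymphocyte markers 0 were called, with sums of 8.13 to 9.12 in controls and 8.53 to 9.49 in knockouts. At an unadjusted limma p under 0.05, 2 of these 6 were higher and 0 lower. Of 7 neuron markers 0 were called (1 higher and 0 lower at an unadjusted p under 0.05). Markers were named here after their values were seen. The part of these cells in the change of Egr2 was not tested. In sorted bulk samples, more cells that make a transcript and more transcript per cell cannot be told apart.

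**Figure D1:**
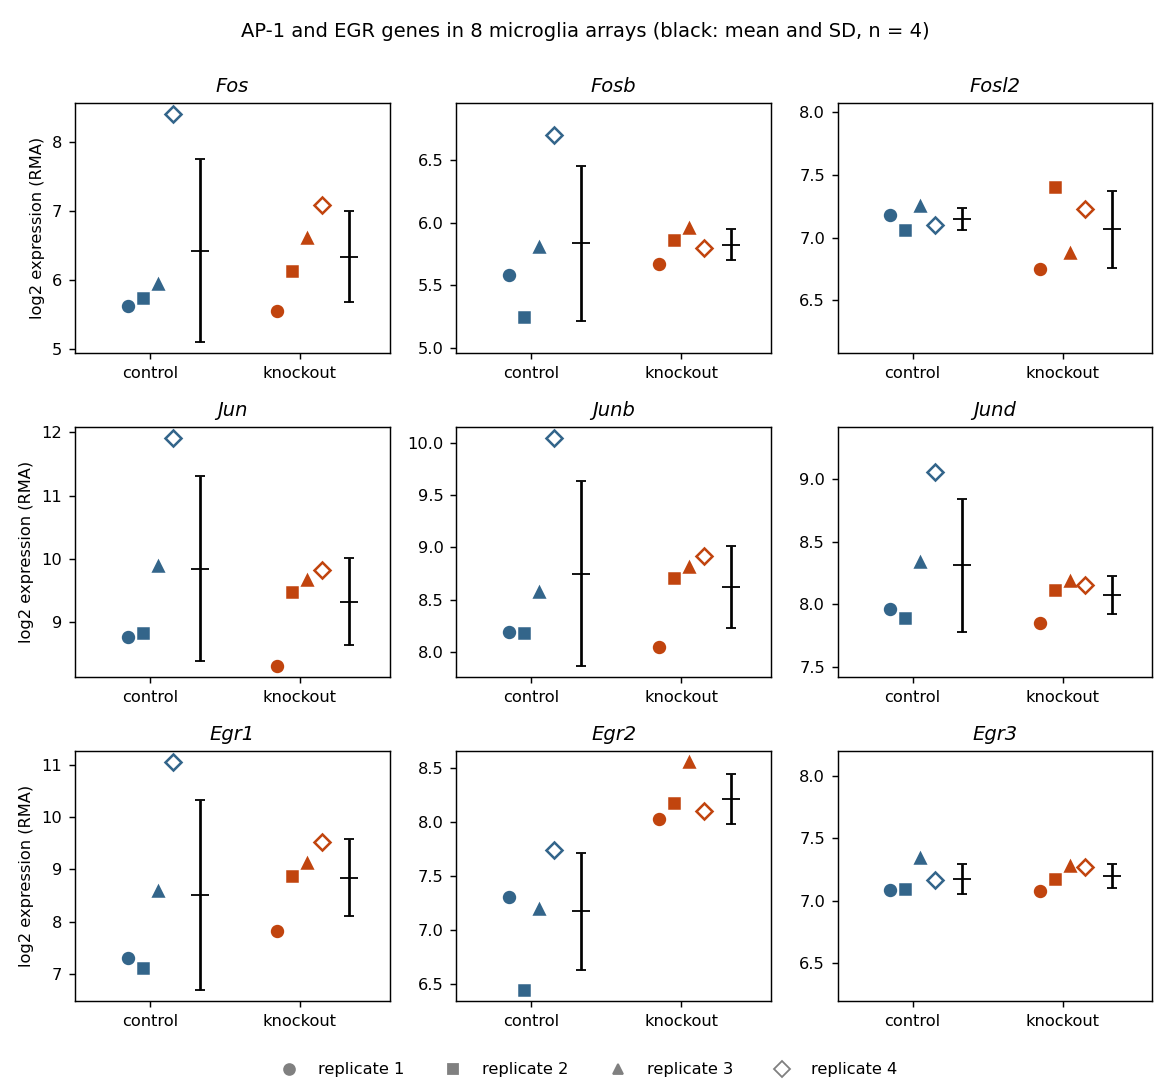
Log2 expression of the 9 genes in each array, on a separate axis per gene, with control arrays in blue, knockout arrays in orange, symbols for the replicate numbers and the mean and SD of each group (n = 4) in black. For Egr2 the 4 knockout arrays, at 8.03 to 8.56, lie above the controls, and for 6 other genes control 4 (open diamond) is the highest of the 8 arrays.

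The remaining EGR members did not pass the test. Egr1, the most studied EGR factor and a standard marker of cell stimulation, was at 7.30, 7.11, 8.59 and 11.05 in controls 1 to 4, and the knockouts 1 to 4 were at 7.82, 8.88, 9.13 and 9.53. Control 4 was above all knockout arrays, whereas the 3 other controls were below the 3 highest knockouts. The change was 0.33 ± 0.69 (SE, adjusted p = 0.861), and its 95% interval, -1.18 to 1.83, holds the change of Egr2. Egr3, a relative active in lymphocytes and neurons, was nearly flat, at 7.09, 7.09, 7.34 and 7.17 in controls and 7.08, 7.17, 7.27 and 7.27 in knockouts. Its change of 0.03 ± 0.09 had a 95% interval of -0.17 to 0.23, which leaves out a change as large as that of Egr2.

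Among the Fos family none of the 3 members passed. Fos, the classic partner of Jun, was at 5.63, 5.73, 5.94 and 8.41 in controls 1 to 4, and the knockouts 1 to 4 were at 5.54, 6.12, 6.61 and 7.08. Control 4 stood above every other array, and knockouts 2 to 4 lay above the other controls. The change over all arrays was -0.09 ± 0.53 (SE, adjusted p = 0.955). Fosb, which also yields the stable form delta-FosB, was at 5.58, 5.25, 5.80 and 6.70 in controls and 5.67, 5.86, 5.96 and 5.80 in knockouts, again with control 4 highest. Fosl2, or Fra-2, a longer-lived Fos protein, was at 7.18, 7.06, 7.26 and 7.10 in controls and 6.75, 7.41, 6.88 and 7.23 in knockouts. Its knockouts spread on both sides of the controls (change -0.08 ± 0.13, 95% interval -0.38 to 0.21).

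None of the Jun family passed either. Jun was at 8.77, 8.82, 9.88 and 11.91 in controls 1 to 4, and the knockouts 1 to 4 were at 8.31, 9.48, 9.66 and 9.82, so that control 3 and control 4 exceeded every knockout. The change was -0.53 ± 0.57 (SE, adjusted p = 0.694). Junb, whose protein often restrains Jun, was at 8.19, 8.18, 8.58 and 10.05 in controls and 8.04, 8.71, 8.81 and 8.92 in knockouts. Jund, the Jun gene with the steadiest expression in most cells, was at 7.97, 7.89, 8.34 and 9.05 in controls and 7.85, 8.11, 8.19 and 8.15 in knockouts. Neither passed, with changes of -0.13 ± 0.35 (adjusted p = 0.897) for Junb and -0.24 ± 0.21 (adjusted p = 0.608) for Jund.

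Several members varied widely between arrays of the same genotype. The pooled SD within groups was 1.38 for Egr1, 1.15 for Jun, 1.05 for Fos and 0.68 for Junb, against a median of 0.15 over all tested genes. These rank as numbers 6, 17, 25 and 76 of 19938. Egr3, at 0.11, varied less than the median gene, and Egr2 (0.41), Fosb (0.45), Jund (0.39) and Fosl2 (0.22) lay between.

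The spread had a common order. Control 4 was the highest of all 8 arrays for 6 of the 9 members (Fos, Fosb, Jun, Junb, Jund and Egr1), and it was the highest for 13.8% of all genes. Knockout 1 was the lowest knockout for all 9 members, as it was for 25.6% of all genes. For Jun it stood at 8.31 against 9.48 for the next knockout, and for Egr1 at 7.82 against 8.88. After each group mean was subtracted, the 15 pairs of those 6 genes correlated at 0.88 to 0.99 (Pearson r over 8 arrays, median 0.98). Without control 4 the range was 0.36 to 0.98 (7 arrays, median 0.87). The 6 genes were grouped after their values were seen, and the arrays share their preparation, so these figures are a description only. Egr2 correlated with the 6 at 0.64 to 0.86, Egr3 at 0.30 to 0.48 and Fosl2 at 0.05 to 0.23. Without control 4 those ranges became 0.19 to 0.87, 0.72 to 0.97 and 0.36 to 0.64.

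**Figure D2:**
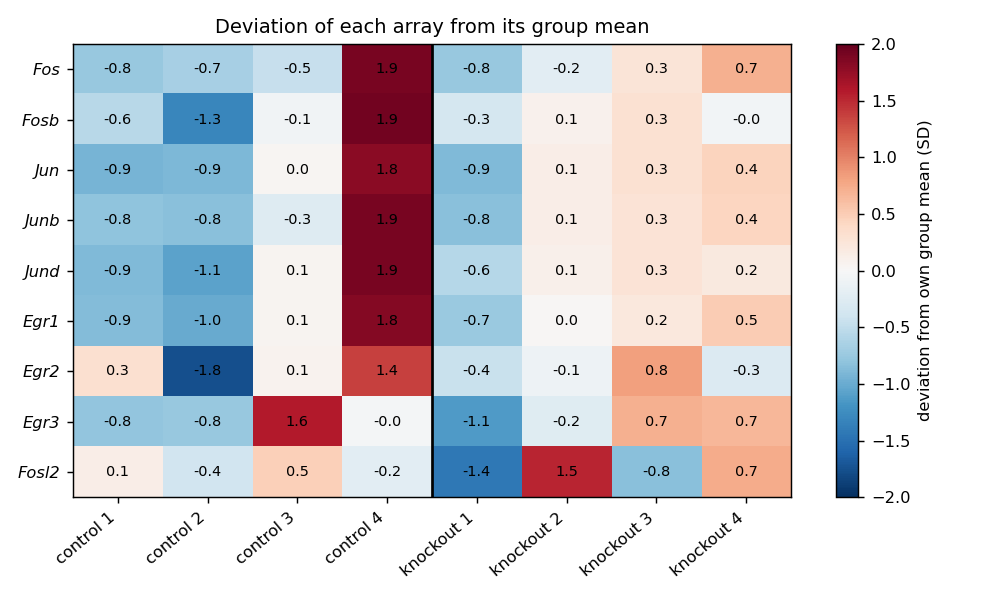
Deviation of each array from its own group mean, divided by the pooled SD of the gene, with genes in rows and arrays in columns (control arrays left of the black line, red above and blue below the mean). Control 4 is dark red for the upper 6 genes, and knockout 1 is below its group mean for all 9.

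Control 4 was singled out after its values were seen. Against the mean of the other controls it was higher by 3.38 on the log2 scale for Egr1 (10.4-fold), 2.75 for Jun (6.74-fold), 2.64 for Fos (6.24-fold), 1.73 for Junb, 1.16 for Fosb and 0.99 for Jund. Egr2 was higher by 0.76, while Fosl2 (-0.06) and Egr3 (-0.01) were level. Differences above 1 were found in this array for 41 of all 19938 genes, and 5 of the 41 were members. By the same measure control 3 had 53 such genes and controls 1 and 2 had 9 each, with 0 members in any of these. By size Egr1 ranked number 2, Jun 6 and Fos 7.

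The array was also high in other stimulus-response genes of the lists given further on, with 12 of 129 list genes over 1 above the other controls and 0 over 1 below. Ier2, an immediate-early nuclear protein, ranked highest of all genes, at 9.40 in control 4 against 5.34 to 6.36 in the other controls. Dusp1, the phosphatase that shuts down p38 and JNK, was at 10.58 against 6.67 to 7.66. The others were the AP-1 subunit Atf3, Ier3, Ier5, the G-protein regulator Rgs1, Btg2, the mRNA-decay factor Zfp36, Nfkbiz, the linker histone H1f2 and the chemokines Ccl3 and Ccl4. None of 17 MAP kinase cascade genes and none of 14 upstream regulators reached that size. Members and list genes made up 17 of the 41 genes over 1 above, and 11 of the first 20 by size. The rest of the first 20 included Adamts1 (number 4), Snord118 (5), Mir142, Rnu12, Snora31 and the histone genes H3c4 and H2bc8. These were named after their values were seen. Neutrophil markers in control 4 summed to 14.01, below control 3 at 14.23 and above control 2 at 13.53 and control 1 at 11.50. In control 4, 2 of 7 neutrophil markers were over 1 above the other controls. Border macrophage markers were lowest among controls in control 4, at 9.33. The part of these cells in the high values was not tested.

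**Figure D3:**
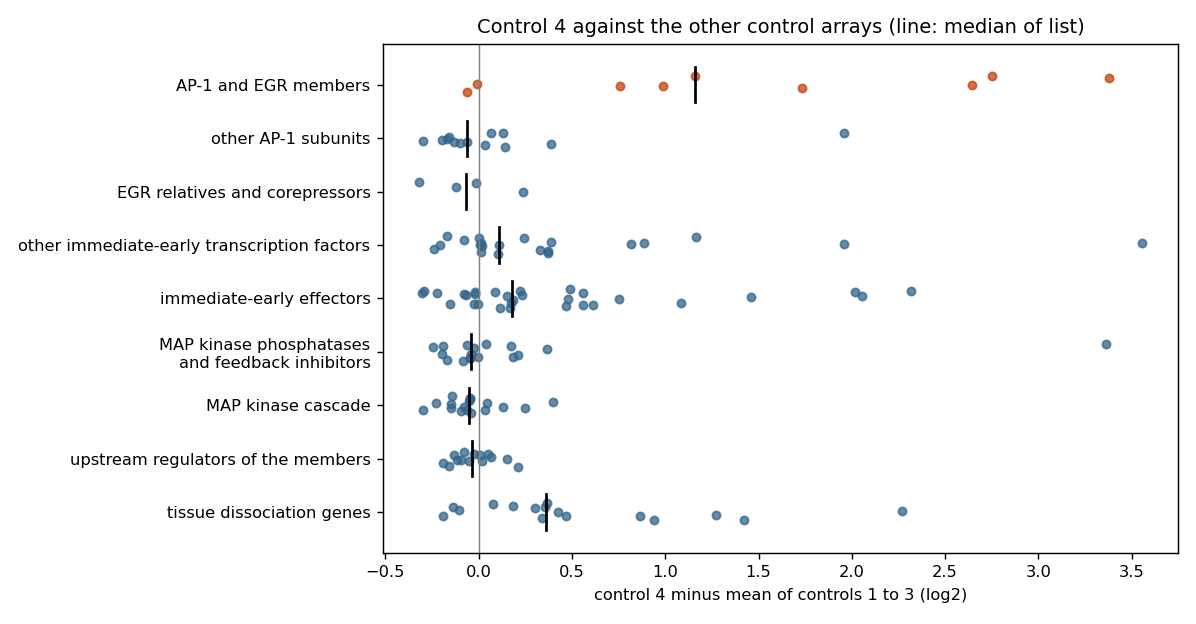
Difference between control 4 and the mean of controls 1 to 3 on the log2 scale for the 9 members (orange) and for each gene of the pathway lists (blue), with the median of each list as a black line. The members reach 3.38 and have a median of 1.16, while the genes of the MAP kinase cascade and of the upstream regulators stay near 0.

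The comparison was repeated without control 4. That array was picked for its high values, so leaving it out had to raise the change of every gene high in it. The changes and p-values of this fit are therefore no separate evidence on the genotype. The changes of Fos, Fosb, Jun, Junb and Jund turned from negative to positive, and no member other than Egr2 passed the test. Egr1 moved from 0.33 to 1.17 ± 0.40 (SE, adjusted p = 0.117), with 3 of 4 knockouts above all 3 controls. Fos moved from -0.09 to 0.57 ± 0.28 (adjusted p = 0.308) and Junb from -0.13 to 0.30 ± 0.19 (adjusted p = 0.478), also with 3 of 4 knockouts above. Jun came to 0.16 ± 0.35 and Jund to 0.01 ± 0.13. Egr2 rose by 1.23 ± 0.20 (adjusted p = 0.00396). Leaving out knockout 1 turned the sign of Fos (0.18), Fosb, Fosl2 and Junb, and leaving out control 1 (-0.08) or control 2 (-0.14) that of Egr1, with none of these called. Dropping control 4 also brought 6 list genes past the test as higher in knockouts: Atf3 (1.05, adjusted p = 0.00231), Ier2 (1.30, adjusted p = 0.0263), Ier3 (0.73, adjusted p = 0.00484), Nfkbiz (0.75, adjusted p = 0.00454), Id2 (0.83, adjusted p = 0.0430) and Socs3 (0.62, adjusted p = 0.0486). With all arrays their adjusted p ran from 0.173 to 0.900. The same fit lost 8 list genes that were called with all arrays: Batf, Nfil3 and Sik1 among the higher ones and Dnajb1, Errfi1, Hspa1a, Map2k1 and Trib1 among the lower ones (adjusted p = 0.0541 to 0.122). Over all genes it called 794 higher and 616 lower, against 1073 and 832 with all arrays. Genes gained or lost here were named after their values were seen.

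**Figure D4:**
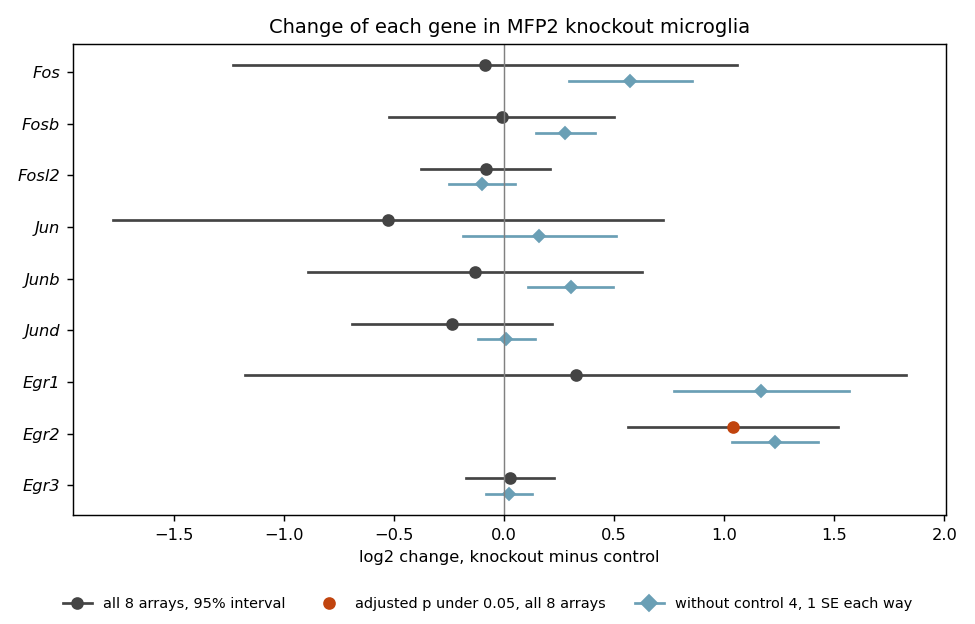
Change of each gene on the log2 scale (knockout minus control), with circles and 95% intervals for all 8 arrays and diamonds with 1 standard error each way for the fit without control 4. The interval of Egr2, 0.56 to 1.52, is the only circle's interval that leaves out 0, and the diamonds of Fos, Egr1 and Junb lie to the right of their circles.

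The EGR partners and the other AP-1 subunits gave 3 calls with all arrays, each of a gene higher in knockouts. Nab2, a corepressor that binds EGR proteins and limits their activity, was at 7.78, 8.19, 8.09 and 8.00 in controls 1 to 4, and the knockouts 1 to 4 were at 8.63, 8.73, 8.87 and 8.95. The groups did not overlap, and it rose by 0.78 ± 0.11 (SE, 1.72-fold, adjusted p = 0.000912), also when any single array was left out. Its paralogue Nab1 was at 7.19 in controls and 7.59 in knockouts on average (adjusted p = 0.126), and Egr4 and Wt1 did not pass. So 1 of the 4 EGR relatives and corepressors was higher and 0 lower (2 and 0 at an unadjusted limma p under 0.05).

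Of 13 other AP-1 subunits measured, 2 were higher and 0 lower (2 and 1 at an unadjusted limma p under 0.05), with a median log2 change of 0.03 against -0.02 over all genes. Batf2 rose from 6.87 ± 0.19 (SD) to 7.39 ± 0.15 (adjusted p = 0.0117), and Batf, which pairs with Jun proteins and IRF factors, from 6.69 ± 0.18 to 7.43 ± 0.46 (adjusted p = 0.0266). In Batf, knockouts 3 and 4 were at 7.80 and 7.85 and knockouts 1 and 2 at 7.07 or less. It was no longer called once control 2, 3 or 4 or knockout 3 or 4 was left out (adjusted p = 0.0598 to 0.0834). Maf, a large leucine zipper factor of macrophages, had every knockout below every control and missed the threshold (-0.40 ± 0.12, adjusted p = 0.0519). It was called lower in 6 alternatives (adjusted p = 0.0218 to 0.0498), which made the count of lower subunits 1 with the replicate number as a block, without dim genes, without knockout 2 or without control 3 and knockout 2. Maf was named after its values were seen.

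**Figure D5:**
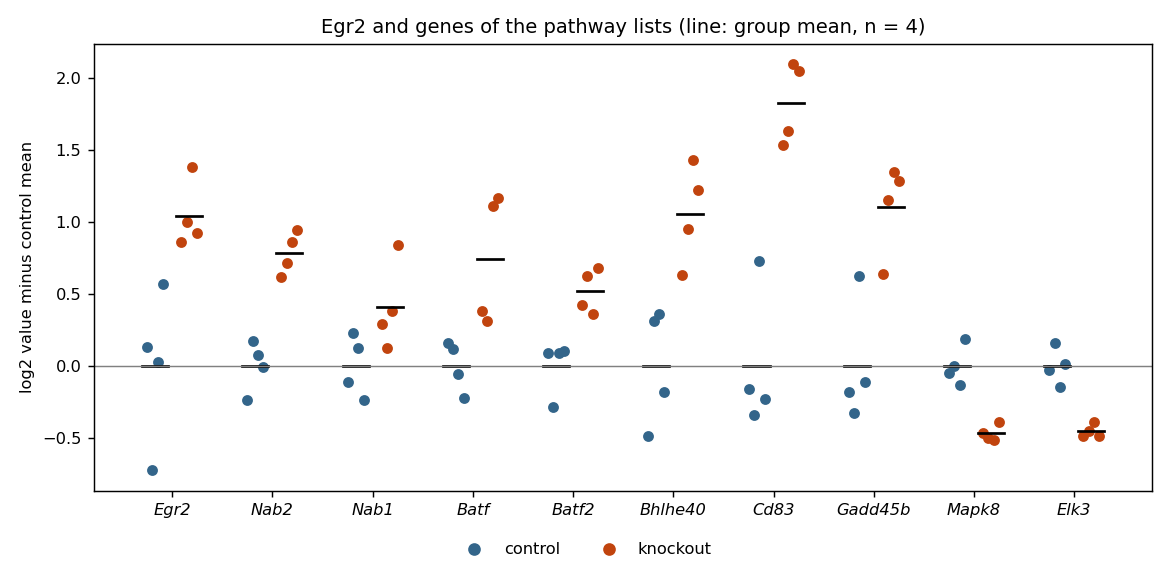
Log2 value minus the control mean for Egr2 and 9 genes of the pathway lists, with control arrays in blue, knockout arrays in orange and group means as black lines (n = 4 each). The groups do not overlap for Nab2, which rose by 0.78, whereas for Nab1 they do, and Mapk8 and Elk3 are lower in all knockout arrays.

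Other immediate-early genes were called in both directions. Of 21 genes listed as other immediate-early regulators, mostly transcription factors, 4 were higher and 0 lower (5 and 1 at an unadjusted limma p under 0.05). Bhlhe40, a repressor that is also part of the clock, rose by 1.06 ± 0.20 (SE, adjusted p = 0.00537) and the growth regulator Myc by 0.63 ± 0.14 (adjusted p = 0.0162). The kinase gene Sik1 (0.44) and Nfil3 (0.64) rose as well. Myc was not called without knockout 3 (adjusted p = 0.0568). Sik1 was not called without control 3, control 4, knockout 3 or knockout 4 (adjusted p = 0.0540 to 0.0808) or with the replicate number as a block (0.0504), and Nfil3 without any control array, knockout 3 or knockout 4 (adjusted p = 0.0610 to 0.106). The count of 4 became 2 without control 3 or knockout 4 and 1 without knockout 3.

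Of 30 immediate-early effectors 2 were higher and 6 lower (7 and 6 at an unadjusted limma p under 0.05), with a median change of 0.00. Cd83, a surface protein of activated antigen-presenting cells, rose from 8.70 ± 0.49 (SD) to 10.53 ± 0.29, or 3.55-fold (adjusted p = 0.000433), and the stress gene Gadd45b by 1.11 ± 0.20 (SE, adjusted p = 0.00435). Zfp36l2, which promotes mRNA decay, fell by 0.48 ± 0.09 (adjusted p = 0.00636) and Rgs2, which damps G-protein signals, by 0.60 ± 0.13 (adjusted p = 0.0124). The 2 higher genes became 4 without control 3 and 5 without control 4 or without control 3 and knockout 2 together, and the 6 lower genes became 3 without control 2.

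Several inhibitors and relays of the MAP kinase pathways that drive the members were lower. Of 17 phosphatases and feedback inhibitors 4 fell: Dusp7 by 0.65 ± 0.11 (SE, adjusted p = 0.00254) and Dusp6 by 0.57 ± 0.10 (adjusted p = 0.00365), which inactivate ERK, and Spred1 (-0.54) and Spry1 (-0.52), which act above it. Dusp6 was at 11.24, 11.42, 11.24 and 11.13 in controls and 10.67, 10.91, 10.60 and 10.60 in knockouts, without overlap. Dusp3 was the 1 higher gene (0.64, adjusted p = 0.0143, lost without knockout 3 at 0.0503) and was named after its value was seen. At an unadjusted limma p under 0.05, 2 of the 17 were higher and 4 lower.

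In the cascade itself, 3 of 17 measured genes were lower and 1 higher (6 and 1 at an unadjusted limma p under 0.05). Mapk8, the kinase JNK1 that activates Jun, fell from 7.90 ± 0.14 (SD) to 7.43 ± 0.05 (adjusted p = 0.00612). Mapkapk2, which acts below p38, rose by 0.64 ± 0.14 (SE, adjusted p = 0.0118). Mapk14, which encodes a p38 kinase, missed the threshold with all arrays (-0.45, adjusted p = 0.0554). It was called lower in several alternatives (adjusted p = 0.0340 to 0.0471) and was named after its values were seen. Rps6ka5 (-0.51) and the ERK activator gene Map2k1 (-0.36) fell. Without control 1, control 2 or knockout 3, 1 of the 3 lower genes was called. Rps6ka5 was lost without those arrays or knockout 4 (adjusted p = 0.0633 to 0.0751), and Map2k1 without control 1, 2 or 4 or knockout 1, 3 or 4 (adjusted p up to 0.0965) and with the replicate number as a block (0.0556).

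Of 14 upstream regulators 3 were lower and 0 higher (7 and 0 at an unadjusted limma p under 0.05), with a median of -0.22. Elk3, an ETS partner of SRF, fell by 0.45 ± 0.09 (SE, adjusted p = 0.00626), and the MADS-box factors Mef2a (-0.51, adjusted p = 0.00298) and Mef2c (-0.51, adjusted p = 0.00438) fell too. Srf itself was at 7.43, 7.69, 7.67 and 7.48 in controls and 7.47, 7.70, 7.83 and 7.63 in knockouts, with overlapping groups (adjusted p = 0.708). After cyclic loess scaling the count of lower regulators was 5, with Creb1 (adjusted p = 0.0471) and Ep300 (0.0404) added.

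Of 16 measured genes outside these families that respond to tissue dissociation, 5 were higher and 5 lower (5 and 6 at an unadjusted limma p under 0.05). The called genes were named in full after the values were seen. The cytokine gene Tnf (1.22), the chemokines Ccl3 (1.36), Ccl4 (1.54) and Cxcl2 (0.94) and the chaperonin Hspe1 (0.47) rose. The heat shock genes Dnaja1 (-0.78), Dnajb4 (-0.75), Hspa1a (-0.64), Dnajb1 (-0.60) and Hspa8 (-0.37) fell. The other 6 did not pass, among them the heat shock genes Hsp90aa1 (-0.19, adjusted p = 0.363) and Hspa5 (-0.34, adjusted p = 0.158) and the cytokine gene Il1a (-0.04, adjusted p = 0.918). Ccl3 was not called without control 2 (adjusted p = 0.0605), nor Ccl4 without control 1, control 2, knockout 3 or knockout 4 (adjusted p = 0.0562 to 0.0835), and the robust prior with an intensity trend lost both (0.0930 and 0.135). The 3 higher genes without control 2 were the lowest count for that direction. The 5 lower genes became 2 without control 1, control 2, knockout 1 or knockout 3 and 3 without control 4 or with the replicate number as a block. Over all 8 lists, 37 of 129 genes were called (28.7%, against 9.55% of all genes), and 21 of the 37 stayed called whichever array was left out. The lists were chosen with earlier results known, and the 9.55% includes dim genes. With those left out, 1109 of 9969 genes were higher and 929 lower, a larger share.

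The genes whose array-to-array deviations most resembled those of the members were sought among 9474 named genes at or above the median level. Likeness was the Pearson correlation over 8 arrays, after subtraction of group means, with the mean standardised deviation of the 9 members. The best 6 were the small nuclear RNA gene Rnu12 (0.98), Eva1b (0.97), Ier2 (0.96), Bik (0.95), the collagen gene Col4a2 (0.95) and Hcfc1r1 (0.95). Without control 4 they gave 0.85 to 0.97 over 7 arrays, which are among the same 8 and so give no independent check. Likeness measures the order of the arrays and not its size. Control 4 exceeded the mean of the other controls by 3.56 for Ier2 and 2.10 for Rnu12. For Hcfc1r1 it did so by 0.33, for Eva1b and Bik by 0.28 each and for Col4a2 by 0.17. Ier2 was at 5.82, 5.34, 6.36 and 9.40 in controls 1 to 4, and knockouts 1 to 4 gave 6.28, 7.26, 7.29 and 7.74, the order seen in Egr1. Hcfc1r1 was called higher in knockouts, by 0.57 ± 0.10 (SE, adjusted p = 0.00326), and the other 5 were not called.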

How the data were processed

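The deposited values are log2 expression per probe set and array. RMA is the method named by the submitters' processing notes, and the base follows from the span of 2.04 to 13.99. RMA puts the probes of all arrays on 1 distribution before it summarises them into probe sets, which hides any global shift, and it compresses dim genes. The array medians of the probe-set values still ran from 6.03 to 6.15. Per the labels' protocols, 5.775 ng of RNA per sample was amplified. Of 28874 probe sets, 21789 had 1 gene symbol in the platform annotation; the probe set with the highest mean represented a gene, which left 19938 genes. Knockout was compared with control in limma 3.58.1 (R 4.3.3; lmFit, eBayes, two-sided, no covariate), with p-values adjusted by Benjamini-Hochberg across the 19938 genes, threshold 0.05. A gene that rose or fell passed it. The method was tested on simulated data. Over all tested genes same-numbered arrays did not deviate together (correlations -0.06 to 0.16), so no block was used. Members, lists and markers were chosen with earlier results of these data known. Genes named by rule are the members, Hsd17b4, up to 4 called genes per list by adjusted p and the 6 most like the members. Others are said to be named after their values were seen. No rule picked Srf, Creb1, Ep300, Egr4, Wt1, Hsp90aa1, Hspa5, Il1a, Xist, Eif2s3y, Tmem119 or P2ry12. Figures: matplotlib 3.10.9, Python 3.11.15.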

Additional observations from a re-analysis of the deposited data

Results flagged for a closer look

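Among 118 groups of 4 arrays examined for 59 genes named here, 9 held an array whose gap to its nearest neighbour as a share of the range exceeded Dixon's 95% critical value. Chance flags about 1 in 20 groups, but this count cannot be read against it, since several of the genes were named because control 4 was high in them. Over all 19938 genes control 4 was the distant array for 207, or 1.04%, and the other arrays for 0.863% to 1.77%. Of the 18 groups of the members 1 passed, Fos in the controls, at 8.41 in control 4 (ratio 0.89). Control 4 was also the distant array for H1f2 at 10.56, Ier3 at 9.02, Ier5 at 8.55, Rgs1 at 9.84 and Zfp36 at 10.97. The remaining 3 were Batf2 at 6.59 in control 2, Mef2c at 10.52 in control 3 and Myc at 8.27 in control 1. For Egr1, Jun and Junb, control 4 was the distant array too, with ratios of 0.63, 0.65 and 0.79, below the critical value.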

How the results depend on the processing

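Egr2 was higher in all 18 alternatives, from 0.80 without control 2 to 1.23 without control 4, and the other 8 members were called in none, so that the counts of 1 higher and 0 lower members did not move. The signs of uncalled members did change: for Fosb also after cyclic loess and for Egr3 after quantile normalization and without control 1 or control 2. At an adjusted p under 0.01 all tested genes gave 567 higher and 358 lower instead of 1073 and 832. Leaving out single arrays gave 753 to 1162 higher and 507 to 960 lower genes. Same-numbered arrays share only a number in the labels, and over all genes 1 of 4 control arrays correlated best with its own number. Some members did move together, with Fos and Jun rising in order from replicate 1 to 4 in both genotypes. With the number as a block the SE of Fos fell from 0.53 to 0.26. That of Jun fell from 0.57 to 0.34 and that of Egr1 from 0.69 to 0.39. None of them was called (limma adjusted p = 0.914, 0.450 and 0.737). For Fosl2 the SE went from 0.13 to 0.14. With the replicate number as a block, Egr2 changed by 1.04 (adjusted p = 0.00951) and 1029 genes were higher and 826 lower. Fosb lies under the median level and has no value without dim genes. With 4 arrays a group, the 95% intervals for Egr1, Jun and Fos reach from -1.18 to 1.83, -1.78 to 0.72 and -1.23 to 1.06.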
